A study of Homo sapiens with 12 samples.

Results

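A set of 9 genes of the Hippo pathway and of its transcriptional output were followed through a transcription shut-off, out of the 26334 genes in the table. They were taken by symbol, all 9 were present under the symbols listed, and all 9 passed the filter on low counts, among 12775 genes tested. CYR61, CTGF and ANKRD1 are targets of the coactivator YAP, AMOTL1 and AMOTL2 bind it, LATS1 and LATS2 are the kinases that restrain it, and YAP1 and TEAD1 encode YAP and a factor that carries it to DNA. The shA673-1c cells derive from A673, an established Ewing sarcoma line, and carry a doxycycline-inducible hairpin against the fusion transcript EWS::FLI1, and every library came from cells with the hairpin induced by doxycycline at 1 µg per ml for 4 days. Actinomycin D, which blocks transcription, was then applied at 5 µM, and polyadenylated RNA was sequenced at 0, 1, 2 and 4 h in 3 biological replicates per time, 12 libraries in all. No library of cells without doxycycline or without actinomycin D beyond the 0 h point was analysed here, so neither the knockdown nor an untreated course is part of any comparison.

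In the Hippo pathway the kinases MST1 and MST2 activate LATS1 and LATS2, which phosphorylate YAP and its relative TAZ and keep them in the cytoplasm. YAP that escapes this enters the nucleus, binds TEAD factors and drives genes such as CYR61 and CTGF, which encode secreted matricellular proteins. Some of the induced genes, LATS2 and AMOTL2 among them, act back on YAP as negative feedback. With transcription blocked, the level of each mRNA follows its loss, so the course compares how long-lived these mRNAs are.

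Total counts lay between 9381855 and 10929000 per library, and levels are given as CPM (counts scaled to a common library size) after TMM scaling in edgeR. All changes are relative to the other mRNAs of a library, since no spike-in was used. FLI1, whose reads include the fusion transcript, lay between 19.8 and 21.7 CPM at 0 h and between 7.01 and 8.16 CPM at 4 h. Of 8 Ewing sarcoma markers, 7 passed the filter. CD99, the surface marker of the disease, had 0 counts in every library, as did the other 8 pseudoautosomal genes looked up beside it. NKX2-2 and NR0B1, both known as genes activated by the fusion, had means of 1.63 and 4.73 CPM of raw totals at 0 h. On the same scale STEAP1 was at 16.5, EWSR1 at 244, CCND1 at 512 and CAV1 at 1800 CPM. Of 14 markers of other cell types, 3 passed the filter (HBB, KRT8 and PECAM1). The sum of all 14 lay between 37.1 and 59.1 CPM of raw totals over the 12 libraries. The libraries are bulk RNA, in which fewer cells with a transcript and less of it per cell cannot be told apart.

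CYR61 had the steepest fall of the 9 mRNAs. Its level was 448, 459 and 324 CPM at 0 h in replicates 1, 2 and 3, 296, 316 and 234 CPM at 1 h, 138, 145 and 128 CPM at 2 h, and 36.0, 32.0 and 42.8 CPM at 4 h. No library of a later time overlapped those of an earlier time. Replicate 3 was the lowest of the 3 at 0 h and the highest at 4 h. The log2 change from 0 h was -0.54 at 1 h (SE 0.14, edgeR adjusted p = 0.107), -1.59 at 2 h (SE 0.15, adjusted p = 1.01e-05) and -3.47 at 4 h (SE 0.16, adjusted p = 5.83e-09). The 4 h level was 11.1-fold lower, with each of the 3 replicates down. Within replicates, 8.04%, 6.97% and 13.2% of the 0 h level was left at 4 h. The change at 4 h lay at the 0.654th percentile of all tested genes. A straight line through the log2 levels had a slope of -0.89 per hour (SE 0.04, adjusted p = 1.53e-09), which corresponds to a relative half-life of 1.12 h with a 95% interval of 1.02 to 1.26 h. CYR61 missed the threshold at 1 h without a term for the replicate number and passed it with that term, here called the replicate block (log2 change -0.54, adjusted p = 2.32e-06).

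CTGF, of the same CCN family of matricellular proteins, was lost far more slowly. It stood at 451, 460 and 246 CPM at 0 h, 390, 418 and 199 CPM at 1 h, 336, 367 and 192 CPM at 2 h, and 250.6, 253 and 182 CPM at 4 h. Replicate 3 was the lowest at each time, and its 0 h library lay below the 4 h libraries of replicates 1 and 2, so the groups overlapped at every time. The 3 replicates kept 55.5%, 55.0% and 73.8% of their 0 h level at 4 h. At 4 h CTGF had changed by -0.76 on the log2 scale (SE 0.31, edgeR adjusted p = 0.0616), and with the replicate block the estimate was -0.72 (SE 0.06, adjusted p = 2.96e-11), lower in 3 of 3 replicates. Without the block the 4 h change passed under library totals (edgeR adjusted p = 0.0298), ribosomal protein scaling (0.0084) and no filter on low counts (0.036). It missed with DESeq2 (adjusted p = 0.0839). It passed in 3 of 12 fits that left out 1 library, those without replicate 3 of 0, 1 or 2 h. The slope was -0.19 per hour (SE 0.07, adjusted p = 0.0295), a relative half-life of 5.33 h (95% interval 3.02 to 22.5 h). The slope no longer passed when 0 h replicate 1, 0 h replicate 2 or 4 h replicate 3 was left out, with adjusted p of 0.0763, 0.0784 and 0.103 in turn.

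ANKRD1, which encodes a nuclear ankyrin repeat cofactor, differed most between replicates. Its level was 158, 149 and 57.7 CPM at 0 h, 137, 135 and 50.1 CPM at 1 h, 123, 119 and 51.3 CPM at 2 h, and 75.5, 72.4 and 34.3 CPM at 4 h. All 4 libraries of replicate 3 lay below all 8 libraries of the other replicates. At 4 h ANKRD1 had changed by -1.001 on the log2 scale (SE 0.47, edgeR adjusted p = 0.0979), and with the replicate block the estimate was -0.98 (SE 0.06, adjusted p = 9.9e-15). Without the block it passed under ribosomal protein scaling (edgeR adjusted p = 0.0283) and missed under library totals (0.065) and with DESeq2 (0.132). It passed in 1 of 12 fits that left out 1 library, that without 0 h replicate 3. Each replicate fell, to 47.7%, 48.7% and 59.3% of its own 0 h level. Within the 3 replicates the log2 change was -0.21, -0.13 and -0.20 over the first hour, and -0.35, -0.36 and -0.29 per hour between 2 and 4 h. The change of rate, tested as the later 2 h step less the earlier 2 h step, was -0.37 (SE 0.80, adjusted p = 0.919), or -0.38 with the replicate block (adjusted p = 0.0115).

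**Figure D1:**
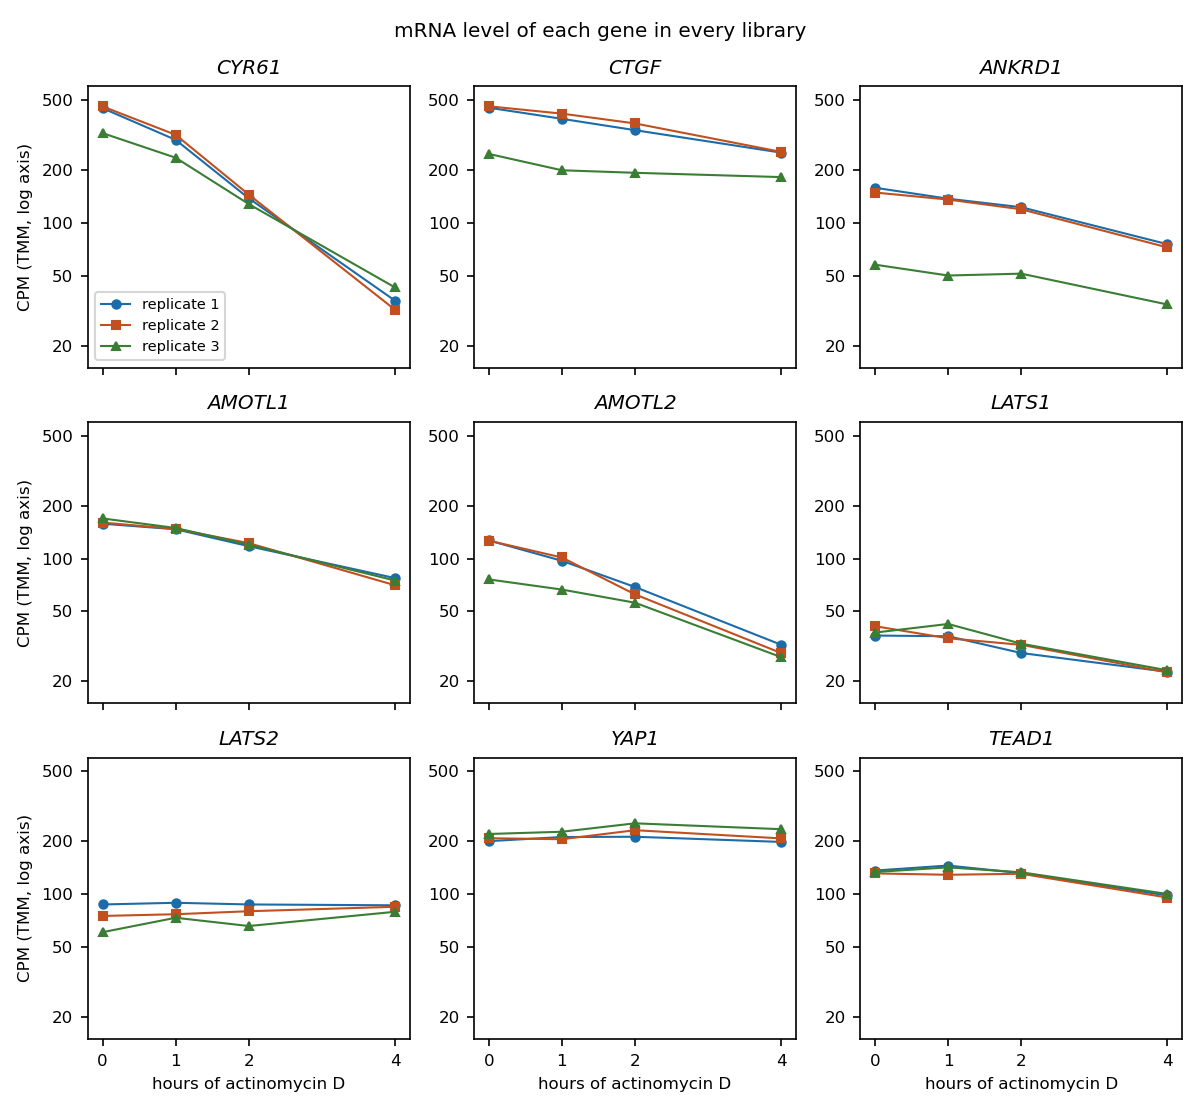
Level of each of the 9 mRNAs in every library, in CPM after TMM scaling on a log axis, against hours of actinomycin D, with 1 line per replicate. CYR61 and AMOTL2 fall most, and CTGF, ANKRD1, YAP1 and LATS2 overlap their 0 h libraries at every time. Replicate 3 starts lower than replicates 1 and 2 for CYR61, CTGF, ANKRD1, AMOTL2 and LATS2.

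Replicate 3 was the lowest of the 3 at 0 h for 5 of the 9 genes. How many of all tested genes had replicate 3 lowest was not counted. The lower start was not tested over the wider list of YAP targets, whose spread at 0 h varied. The 0 h libraries of NT5E (2532 ± 140 CPM) and CCDC80 (220 ± 10.1 CPM, SD, n = 3) lay close together. Those of F3 (108 ± 50.5 CPM) and AXL (435 ± 91.4 CPM) lay further apart. These are picked examples, and the spread of the other targets is not described here. An SD does not show which replicate was low. At 0 h replicate 3 stood at 0.376 of the mean of replicates 1 and 2 for ANKRD1, 0.541 for CTGF, 0.601 for AMOTL2, 0.713 for CYR61 and 0.748 for LATS2. For the other 4 genes the ratio was between 0.976 (LATS1) and 1.08 (YAP1). At 4 h the ratio had moved closer to 1 for ANKRD1 (0.463), CTGF (0.722), AMOTL2 (0.897) and LATS2 (0.927), and had passed 1 for CYR61 (1.26). Replicate 3 also kept more of its 0 h level at 4 h than replicates 1 and 2 for each of these 5 genes, as it did for YAP1 and TEAD1. The share of all tested genes for which it did so was not counted. Over all tested genes too, deviations from the group means correlated most among the replicate 3 libraries (0.575 to 0.649), and the part of this in these values was not tested. Fitted without its 4 libraries, a choice made after seeing the data, CTGF and ANKRD1 passed the threshold at 4 h with log2 changes of -0.88 (edgeR adjusted p = 3.57e-07) and -1.07 (adjusted p = 1.1e-07).

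The promoters of CTGF and ANKRD1 carry repeats of GGAATG, the core sequence that TEAD factors bind, and are shown because they held more matches than the other windows searched. RefSeq promoter windows of 300 bases around the annotated start (GRCh38.p14) were found for 7 of the 9 genes. CYR61 and TEAD1 were not matched. The motif GGAATG or its reverse complement CATTCC was in 14.03% of all 35116 windows, in 1.37% at least 2 times and in 0.128% at least 3 times. The CTGF window held 3 matches and the ANKRD1 window 2. Windows of AMOTL2, LATS2 and YAP1 held 1 each, that of LATS2 downstream of the start, while those of AMOTL1 and LATS1 held 0. AMOTL2 and LATS1 have 2 windows each, and the match of AMOTL2 was in 1 of them. The 2 stretches below are on the minus strand of chromosomes 6 and 10, at chr6:131951442-131951561 and chr10:90921190-90921327, and lie upstream of the annotated starts. They are written 5′ to 3′ as the gene is read, with each GGAATG in capitals.
CTGF: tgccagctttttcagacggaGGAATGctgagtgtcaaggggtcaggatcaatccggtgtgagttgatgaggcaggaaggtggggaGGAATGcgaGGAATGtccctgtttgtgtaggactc
ANKRD1: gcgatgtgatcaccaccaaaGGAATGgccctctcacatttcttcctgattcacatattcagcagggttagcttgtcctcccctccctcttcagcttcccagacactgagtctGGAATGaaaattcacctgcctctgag
In the CTGF stretch the matches begin at positions -169, -104 and -95 relative to the start, and in the ANKRD1 stretch at -220 and -128. A match is a run of letters and was not tested as a binding site in these cells.

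Of the angiomotin-like genes, whose products hold YAP at junctions and in the cytoplasm, both fell, AMOTL2 faster. AMOTL2 stood at 127, 126 and 76.0 CPM at 0 h, 97.1, 101 and 66.6 CPM at 1 h, 68.9, 62.5 and 56.0 CPM at 2 h, and 32.3, 29.0 and 27.5 CPM at 4 h. Replicate 3 was lowest at each time, and the 2 h and 4 h libraries lay below all 0 h libraries. Its log2 change was -0.81 at 2 h (SE 0.19, edgeR adjusted p = 0.0116) and -1.89 at 4 h (SE 0.20, adjusted p = 7.74e-06), 3.71-fold below the start and down in each of the 3 replicates. The 2 h call was lost when 0 h replicate 1, 0 h replicate 2 or 2 h replicate 3 was left out (adjusted p 0.0609, 0.065 and 0.0508), and held with the replicate block (adjusted p = 1.05e-09). The slope of -0.48 per hour (SE 0.05, adjusted p = 5.68e-07) corresponds to a relative half-life of 2.08 h (95% interval 1.73 to 2.63 h).

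AMOTL1 fell with little spread between replicates. Its level was 158, 160 and 169 CPM at 0 h, 147, 147 and 149 CPM at 1 h, 118, 122 and 120 CPM at 2 h, and 77.4, 70.5 and 75.0 CPM at 4 h. The libraries of each time lay below all those of the time before. The log2 change was -0.14 at 1 h (SE 0.05, edgeR adjusted p = 0.388), -0.44 at 2 h (SE 0.05, adjusted p = 0.000116) and -1.13 at 4 h (SE 0.06, adjusted p = 9.13e-09), 2.19-fold below the start and down in each replicate. Its slope was -0.29 per hour (SE 0.02, adjusted p = 8.96e-09), a relative half-life of 3.45 h (95% interval 3.03 to 4.00 h).

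The 2 LATS kinases went apart. LATS1 stood at 36.4, 41.2 and 37.9 CPM at 0 h, 36.1, 35.2 and 42.4 CPM at 1 h, 29.0, 32.3 and 32.8 CPM at 2 h, and 22.7, 22.5 and 23.1 CPM at 4 h. The 1 h libraries overlapped those of 0 h, and the 2 h and 4 h libraries lay below them. LATS1 had a log2 change of -0.30 at 2 h (SE 0.09, edgeR adjusted p = 0.0438) and of -0.76 at 4 h (SE 0.09, adjusted p = 2.6e-05), 1.69-fold below the start and down in each replicate. The 2 h call was near the threshold. It was lost in 10 of the 12 fits that left out 1 library (adjusted p up to 0.166), held without 1 h replicates 2 and 3, was lost with DESeq2 (adjusted p = 0.0534) and without the filter on low counts (adjusted p = 0.0841), and held with the replicate block (adjusted p = 0.00239). The slope was -0.20 per hour (SE 0.03, adjusted p = 9.58e-06), a relative half-life of 4.98 h (95% interval 3.92 to 6.82 h).

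LATS2 had no fall past the threshold. Its level was 87.5, 75.3 and 60.9 CPM at 0 h, 89.5, 77.0 and 73.5 CPM at 1 h, 87.6, 80.1 and 66.0 CPM at 2 h, and 86.6, 84.9 and 79.5 CPM at 4 h. The groups overlapped at every time, with replicate 1 highest and replicate 3 lowest throughout. At 4 h its log2 change was 0.17 (SE 0.13, 95% interval -0.12 to 0.45, edgeR adjusted p = 0.32). With the replicate block it was 0.18 and passed the threshold (adjusted p = 0.0136), though replicate 1 kept 98.9% of its 0 h level while replicates 2 and 3 stood at 113% and 131%. Under scaling to ribosomal protein mRNAs the change at 4 h was -0.20 (adjusted p = 0.313), so that a direction for LATS2 depends on what the libraries are scaled to.

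Under TMM scaling and without the replicate block, YAP1 had no change past the threshold at any time. It stood at 201, 209 and 220 CPM at 0 h, 212, 206 and 227 CPM at 1 h, 213, 232 and 254 CPM at 2 h, and 199, 208 and 235 CPM at 4 h. Replicate 3 was the highest at each time, and the groups overlapped throughout. At 4 h its log2 change was 0.03 (SE 0.08, 95% interval -0.15 to 0.20, edgeR adjusted p = 0.806). At 2 h it was 0.15 (SE 0.08, adjusted p = 0.267), which passed with the replicate block (adjusted p = 0.00598). Under ribosomal protein scaling the 4 h change was -0.33 (SE 0.09, adjusted p = 0.00558). WWTR1, which encodes TAZ, the relative of YAP, had a log2 change at 4 h of -0.05 (SE 0.12, adjusted p = 0.784).

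TEAD1 had no change past the threshold up to 2 h and was lower at 4 h. Its level was 137, 131 and 134 CPM at 0 h, 146, 129 and 142 CPM at 1 h, 132, 131 and 133 CPM at 2 h, and 98.5, 95.9 and 100 CPM at 4 h. The 4 h libraries lay below all others, and those of 0, 1 and 2 h overlapped. The log2 change was -0.02 at 2 h (SE 0.06, 95% interval -0.14 to 0.10, edgeR adjusted p = 0.876) and -0.45 at 4 h (SE 0.06, adjusted p = 3.86e-05), 1.36-fold below the start and down in each replicate. From 2 to 4 h alone the change was -0.43 (SE 0.06, adjusted p = 0.000211). The change of rate was -0.41 (SE 0.10) and missed the threshold without the replicate block (adjusted p = 0.101), while it passed with the block (adjusted p = 0.00125) and in DESeq2 (adjusted p = 0.0245).

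**Figure D2:**
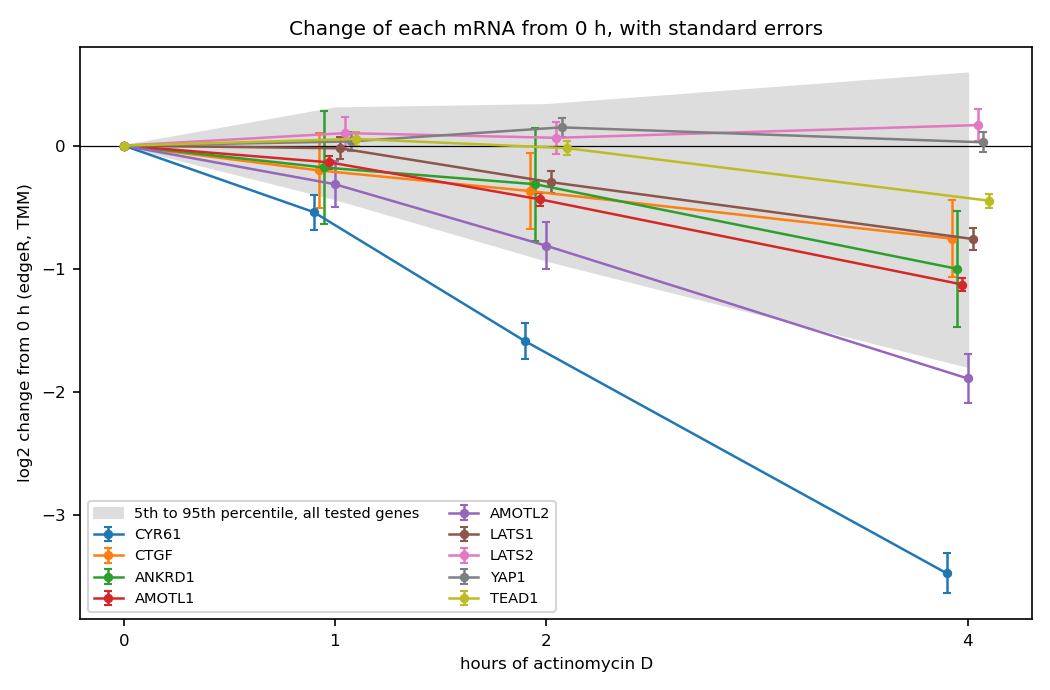
Log2 change from 0 h of the 9 mRNAs at 1, 2 and 4 h, with standard errors from edgeR, points shifted sideways for legibility, over the 5th to 95th percentile of all 12775 tested genes in grey. CYR61 runs below the grey band at each time, reaching -3.47, AMOTL2 lies just below it at 4 h at -1.89, and the other 7 genes lie within it.

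Counted together, 0 of the 9 genes were lower at 1 h in edgeR, where 1.16% of all tested genes were called lower and 0.172% higher. At an unadjusted p under 0.05 there were 2 (CYR61 and AMOTL1, against 6.70% of all genes), DESeq2 called 1 (CYR61, against 1.42%), and the replicate block called 4 lower (CYR61, CTGF, ANKRD1 and AMOTL2, against 6.28% of all genes) and 0 higher (2.52%). Libraries of 1 h lay below all 0 h libraries for 2 of the 9, against 9.55% of all genes, and above them for 0 (4.45%). At 2 h, 4 of 9 were lower (CYR61, AMOTL1, AMOTL2 and LATS1), against 11.7% of all genes, and 0 were higher (3.39%). With the block 6 were lower (19.5%) and 1 higher (15.9%). The 2 h libraries lay below all 0 h libraries for 4 of the 9 (18.3% of all genes) and above them for 0 (13.3%). At 4 h, 5 of 9 were lower, the same 4 and TEAD1, against 24.6% of all genes. With the block 7 were lower (30.8% of all genes), CTGF and ANKRD1 having joined, and 1 was higher (34.8%). None was called higher at 4 h in the fit without the block, where 23.3% of all genes were, nor at an unadjusted p under 0.05 (27.5% of all genes) or in DESeq2 (20.3%). At 4 h 5 of the 9 had all libraries below those of 0 h (27.5% of all genes) and 0 had them above (27.9%). The median log2 change at 4 h was -0.76 over the 9 genes and 0.05 over all tested genes. These comparisons share the 0 h libraries.

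Between neighbouring times, 2 of 9 were lower from 1 to 2 h (CYR61 and AMOTL1, against 5.72% of all genes), and 4 with the block (AMOTL2 and LATS1 added, 14.3%), which also called YAP1 higher (13.0%). Without the block 0 were higher (1.46%). All 2 h libraries lay below those of 1 h for 3 of the 9 (13.6%) and above them for 0 (10.6%). From 2 to 4 h, 5 of 9 were lower (CYR61, AMOTL1, AMOTL2, LATS1 and TEAD1, against 14.2%), and 8 with the block, all but LATS2 (22.3%). None was higher in either fit (10.2% and 22.1% of all genes). All 4 h libraries lay below those of 2 h for 5 of the 9 (19.9%) and above them for 0 (18.1%). In this interval CYR61 changed by -1.89 (SE 0.16, edgeR adjusted p = 5.19e-06), AMOTL2 by -1.08 (SE 0.20, adjusted p = 0.00207) and AMOTL1 by -0.69 (SE 0.06, adjusted p = 4.73e-06). Of the slopes over the course, 6 of 9 were below 0 (25.5% of all genes), and 7 with the block (29.0%), while 0 were above 0 in either fit (25.3% and 33.0%). For the change of rate 0 of 9 passed in edgeR (0.227% of all genes lower, 0.384% higher), 2 were lower at an unadjusted p under 0.05 (TEAD1 and AMOTL1, against 5.50% of all genes) and 1 in DESeq2 (TEAD1, against 0.532%). With the block 4 passed, all with a lower log2 change after 2 h than before it (ANKRD1, AMOTL1, YAP1 and TEAD1, against 5.46% of all genes), and 0 the other way (7.39%). For YAP1 the log2 change was 0.15 from 0 to 2 h and -0.12 from 2 to 4 h.

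Ratios of 2 mRNAs within a library do not depend on how libraries are scaled, and 3 were followed: LATS2 to LATS1, AMOTL2 to AMOTL1 and CYR61 to CTGF. The log2 ratio of LATS2 to LATS1 counts was 1.26, 0.87 and 0.68 at 0 h in replicates 1, 2 and 3 and 1.93, 1.91 and 1.78 at 4 h, so that all 4 h libraries lay above all 0 h libraries. It rose by 0.24 per hour (exact two-sided permutation test over the 12 libraries, p = 0.00056, or 0.00084 after Benjamini-Hochberg adjustment over the 3 ratios), upward in 3 of 3 replicates. At 4 h the ratio was 1.91-fold that at 0 h.

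The log2 ratio of AMOTL2 to AMOTL1 was -0.32, -0.34 and -1.15 at 0 h and -1.26, -1.28 and -1.45 at 4 h, a slope of -0.18 per hour (exact permutation p = 0.00879, the same after adjustment), downward in 3 of 3 replicates. Replicate 3 began near where the other 2 ended and moved least, with a slope of -0.07 against -0.23 and -0.24 per hour. The log2 ratio of CYR61 to CTGF was -0.01, -0.00 and 0.39 at 0 h and -2.80, -2.98 and -2.08 at 4 h, a slope of -0.71 per hour (exact permutation p = 1.9e-05, adjusted 5.7e-05), downward in 3 of 3 replicates. Relative to CTGF, CYR61 was 6.72-fold lower at 4 h than at 0 h. Counts of different genes also carry transcript length, so these ratios compare times and not the levels of the 2 genes.

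**Figure D3:**
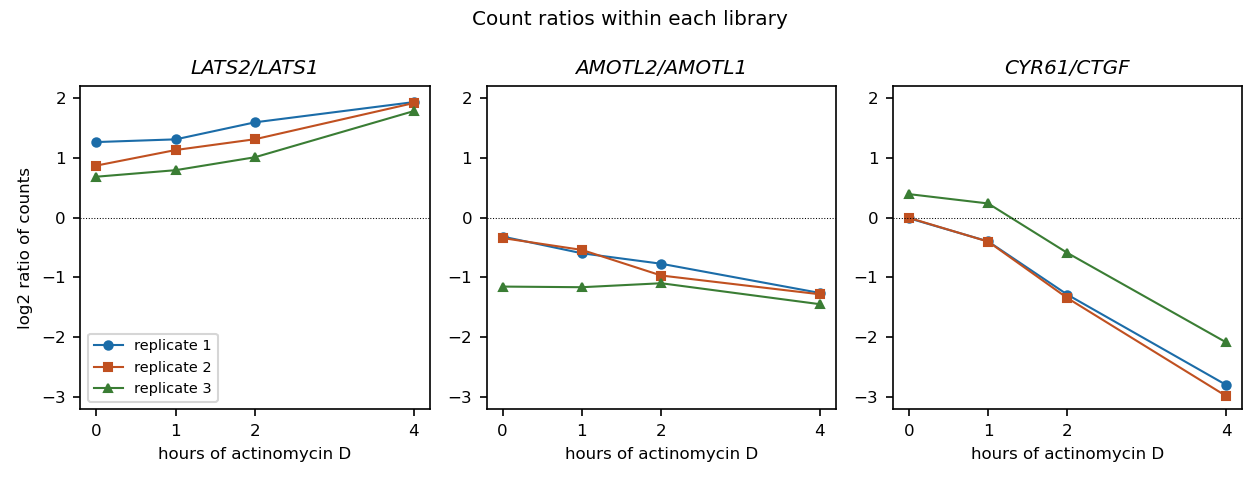
Log2 ratio of the counts of 2 mRNAs in each library (0.5 added to each count) against hours of actinomycin D, with 1 line per replicate. LATS2 gains on LATS1 in every replicate, AMOTL2 loses on AMOTL1 from -0.32 and -0.34 to -1.26 and -1.28 in replicates 1 and 2 and less in replicate 3, and CYR61 loses on CTGF in every replicate.

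Sequence motifs of the 3′ untranslated regions (3′ UTRs) were counted as a description; their relation to the courses was not tested. The 3′ UTR of the protein-coding GENCODE transcript with the longest coding sequence was used, which was found for all 9 genes and for 90.3% of those tested. The pentamer ATTTA occurred 5 times in the 920 bases of CYR61, 3 times in the 1088 of CTGF, 4 times in the 770 of ANKRD1, 7 times in the 5958 of AMOTL1 and 2 times in the 1828 of AMOTL2. It occurred 17 times in the 3576 bases of LATS1, 6 times in the 1838 of LATS2, 9 times in the 3483 of YAP1 and 5 times in the 812 of TEAD1. Per kb this is 5.43 for CYR61 and 1.09 for AMOTL2, the fastest 2 of the 9, and 6.16 for TEAD1, against a median of 1.60 over the tested genes. The longer element TTATTTATT, which contains the pentamer, was in 8.53% of the tested genes and in 2 of the 9, ANKRD1 and LATS2. The matches are shown in the 30 bases around the first of them, 5′ to 3′ with the element in capitals.
ANKRD1: agtgaaactcTTATTTATTtttatgtattc
LATS2: agtttaactaTTATTTATTgatatatcatt

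Across the wider pathway the losses were uneven. Of 27 genes of the kinase cascade and its upstream regulators (LATS1 and LATS2 included), all tested, 11 were lower and 5 higher at 4 h, where 24.6% of all tested genes were lower and 23.3% higher. With the replicate block 14 were lower and 7 higher (30.8% and 34.8% of all genes). The median log2 change of the list was -0.20, against 0.05 for all tested genes. The genes named next had the smallest adjusted p, and none of the 5 higher genes is among them. NUAK2, a kinase that acts on LATS signalling and is itself a YAP target, went from 330 counts over the 3 libraries of 0 h to 5 over those of 4 h (log2 change -5.73, SE 0.42, edgeR adjusted p = 2.3e-07). With the TMM-scaled library sizes taken into account, the ratio of these counts is a 56.4-fold fall with a counting interval of 23.9 to 175. The upstream kinases TAOK1 and TAOK2 fell by 0.93 (SE 0.08, adjusted p = 6.28e-07) and 0.51 (SE 0.06, adjusted p = 1.56e-05) on the log2 scale. SAV1, the scaffold of the MST kinases, fell by 0.96 (SE 0.14, adjusted p = 0.000117), and STRN3, a subunit of the phosphatase complex that opposes them, by 0.79 (SE 0.09, adjusted p = 1.08e-05).

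Among 19 genes of YAP, TAZ, the TEAD factors and their partners, 17 were tested, of which 6 were lower and 1 higher at 4 h (24.6% and 23.3% of all genes), with a median of -0.06. With the replicate block 7 were lower and 4 higher (30.8% and 34.8%). The junction scaffold TJP1 fell by 0.64 on the log2 scale (SE 0.06, edgeR adjusted p = 4.32e-06), the YAP-binding phosphatase gene PTPN14 by 0.35 (SE 0.08, adjusted p = 0.0022) and TEAD4, a paralog of TEAD1, by 0.53 (SE 0.20, adjusted p = 0.0448). YWHAB, a 14-3-3 protein gene of the family that holds phosphorylated YAP, rose by 0.23 (SE 0.06, adjusted p = 0.00797). Its value was -0.13 with libraries scaled to ribosomal protein mRNAs.

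Of 22 genes described as YAP and TAZ targets, 5 of them among the 9 followed here, all were tested, with 7 lower and 3 higher at 4 h (24.6% and 23.3% of all genes) and a median of -0.12. With the replicate block 11 were lower and 8 higher (30.8% and 34.8%). FJX1 fell 2.70-fold from 63.1 ± 6.77 to 23.4 ± 3.12 CPM (SD, n = 3), a log2 change of -1.43 (SE 0.12, edgeR adjusted p = 7.31e-07). NT5E, the ectonucleotidase CD73, rose from 2532 ± 140 to 3321 ± 197 CPM, by 0.39 on the log2 scale (SE 0.07, adjusted p = 0.000502). CCDC80, a matrix protein gene, rose from 220 ± 10.1 to 281 ± 21.0 CPM, by 0.35 (SE 0.07, adjusted p = 0.00178). Under ribosomal protein scaling these rises were 0.03 and -0.01 and missed the threshold. The target list thus held mRNAs with changes from -5.73 (NUAK2) to 0.39 (NT5E) at 4 h. Of the CCN family of CYR61 and CTGF, only NOV was also tested (log2 change 0.25, SE 0.23, adjusted p = 0.4), and in the ANKRD1 family ANKRD23, at 2.55 ± 0.405 CPM at 0 h, rose by 1.11 (SE 0.20, adjusted p = 0.00065).

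**Figure D4:**
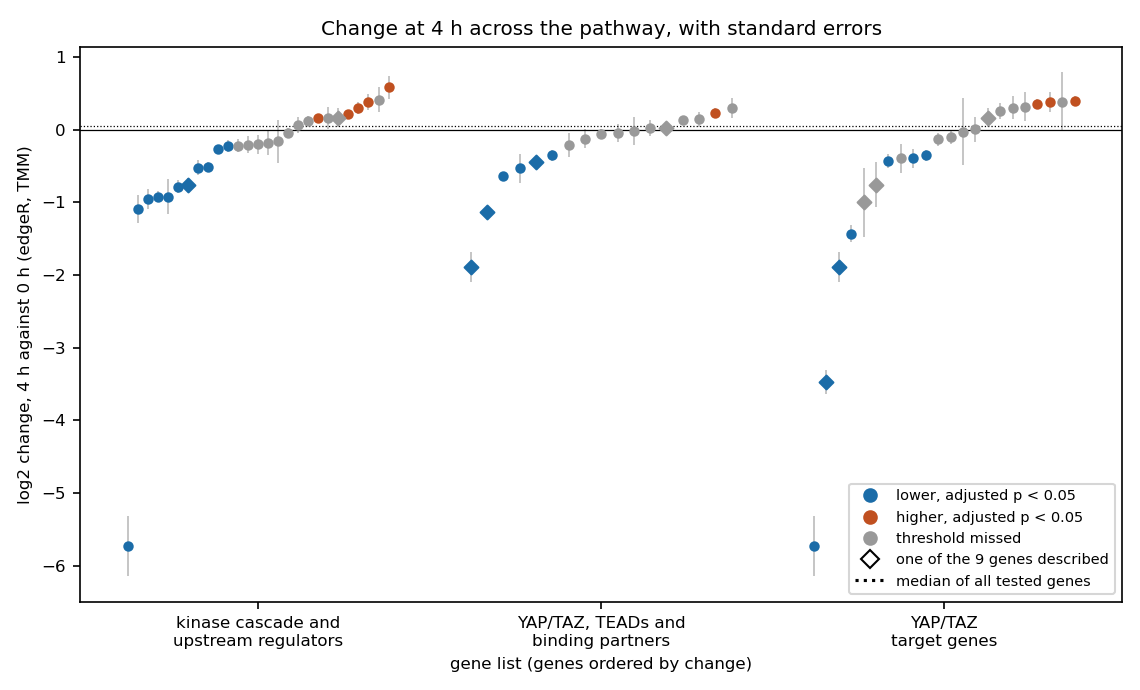
Log2 change at 4 h against 0 h with standard errors for the tested genes of 3 pathway lists, each ordered by its change and coloured by its edgeR call, with diamonds for the 9 genes described. NUAK2 (-5.73), CYR61 (-3.47), AMOTL2 (-1.89) and FJX1 (-1.43) have the largest falls, and NUAK2, AMOTL2, LATS2 and PTPN14 appear in 2 lists.

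The split of calls moved with the scaling. Scaled to library totals, the log2 changes of all genes at 4 h shifted by a median of -0.15. Calls over all genes went from 3148 lower and 2975 higher to 3961 and 1346, and the 3 lists had 15, 7 and 11 lower and 1, 0 and 2 higher genes. Scaled to ribosomal protein mRNAs, the median shift was -0.36 and the calls 5707 lower and 164 higher, with 18, 13 and 12 lower and 0 higher in each list. Among the 9 genes, 8 were then lower, all but LATS2. Relative half-lives shortened under that scaling to 1.01 h for CYR61, 1.73 h for AMOTL2, 2.58 h for AMOTL1, 2.87 h for ANKRD1, 3.35 h for LATS1, 3.499 h for CTGF and 4.58 h for TEAD1, in place of 8.35 h (95% interval 6.00 to 13.7 h) for TEAD1 under TMM. YAP1 then had 11.2 h. The TEAD1 half-lives average over an uneven course, with a log2 change under TMM of -0.02 from 0 to 2 h and -0.43 from 2 to 4 h. The order of these 7 mRNAs by their slopes was CYR61, AMOTL2, AMOTL1, ANKRD1, LATS1, CTGF and TEAD1 under both scalings. A change of scaling shifts the slopes of all genes by nearly the same amount, so the shared order is no separate check. The slope of ANKRD1 under TMM was -0.25 per hour (SE 0.10, edgeR adjusted p = 0.0578) and that under ribosomal protein scaling -0.35. Under TMM the slopes of LATS1 and CTGF differed by less than the standard error of either.

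**Figure D5:**
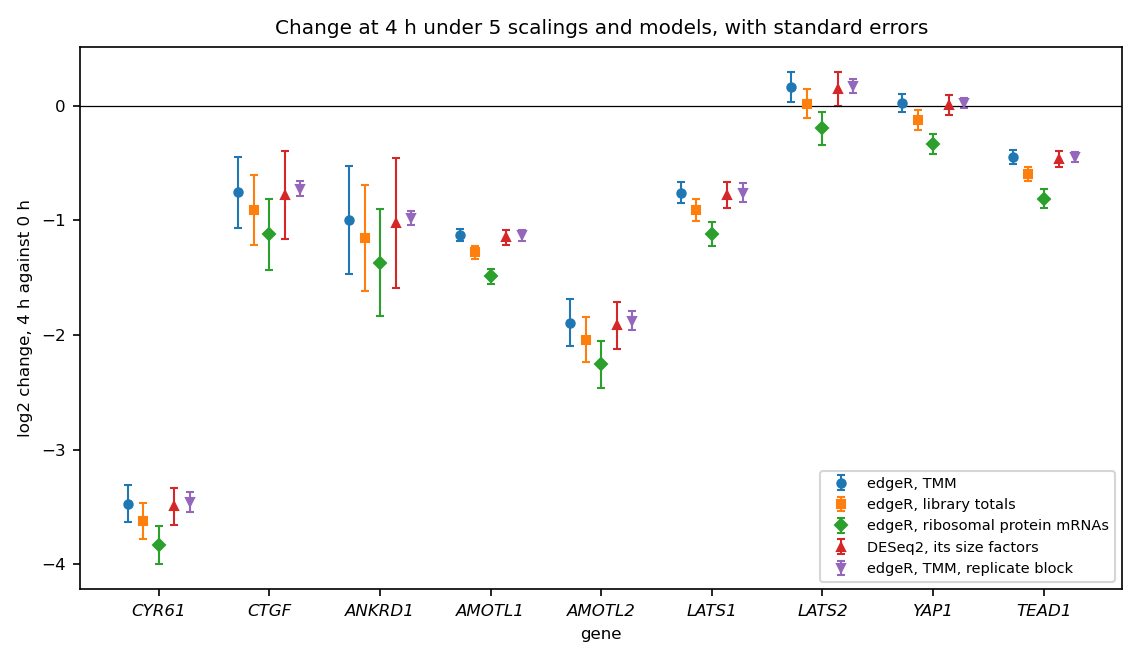
Log2 change at 4 h against 0 h of the 9 genes with standard errors under 5 scalings and models. The 7 genes from CYR61 to LATS1 and TEAD1 are below 0 in each, LATS2 and YAP1 change sign with the scaling, and the replicate block narrows the errors of CTGF and ANKRD1 from 0.31 and 0.47 to 0.06.

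For each gene the mRNAs with the most similar course were sought among 10260 others with at least 5 CPM, by the root mean square difference over the 12 libraries of log2 CPM from the 0 h mean. This difference counts spread between replicates as well as change over time. The nearest to CYR61 were C14orf169 (difference 0.21) and NEDD9 (0.22), with log2 changes at 4 h of -3.72 and -3.35. SMURF2 (0.08) was nearest to CTGF, NRXN3 (0.23) and ANGPTL4 (0.26) to ANKRD1, and TSHZ1 (0.14) and BACH1 (0.14) to AMOTL2. At 4 h NRXN3 and ANGPTL4 had log2 changes of -0.79 and -0.66, against -1.001 for ANKRD1. WDR33 (0.05) and ARID1B (0.06) were nearest to AMOTL1, TRIM33 (0.07) and CCNT2 (0.09) to LATS1, PIP4K2C (0.08) and TOP1MT (0.09) to LATS2, PCM1 (0.04) and PPP4R3B (0.04) to YAP1, and FYN (0.05) and WDR26 (0.06) to TEAD1. CYR61 and ANKRD1 had the most distant nearest neighbours, at 0.21 and 0.23. None of the 9 genes was among the 2 nearest of another.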

How the data were processed

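The authors deposited 1 table of raw counts per gene symbol for the 12 libraries. The submitters' processing notes name FastQC, STAR and hg19 and give no versions. Which program counted reads, with what annotation and strand, is not given in the sources used here, so reads of overlapping or antisense genes could be shared. Per the labels' protocols, the kit was a stranded TruSeq one for mRNA. The genes and lists were chosen with earlier results of these data known. Counts were analysed with edgeR 4.0.16 (R 4.3.3): filterByExpr on the time groups, TMM, and the quasi-likelihood test over all 12 libraries and 12775 genes, with Benjamini-Hochberg adjustment and a threshold of 0.05. Each standard error is the size of the estimate over the root of its F statistic. A relative half-life is -1 divided by the slope, and averages over the course whether or not the rate was even. Count ratios (0.5 added) were tested by exact permutation of the time labels. All 9 genes are named; of each list, up to 5 further genes with the smallest adjusted p at 4 h are named, and for each of the 9 genes the 2 others of most similar course, of which 1 is not reported here. WWTR1, NOV, F3 and AXL, the pseudoautosomal genes and the 3′ UTR motifs were chosen after values were seen. DESeq2 1.42.0, other scalings, no filter, the replicate block and left-out libraries were the alternatives. Replicate numbers were taken as pairing the libraries, since same-numbered libraries deviated together (correlation 0.263 to 0.649, against -0.501 to 0.16 across numbers). The main fits and the intervals of the relative half-lives did not use this pairing, and the replicate block did. Replicates differed beyond counting noise (chi-square per degree of freedom 4.13 to 15.2). The main fits were also run on simulated counts. These held no replicate effect, so that check does not bear on the choice between fits with and without the replicate block.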

Additional observations from a re-analysis of the deposited data

How the results depend on the processing

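Depth limits NUAK2, with 5 counts over the 4 h libraries. The number of the 9 genes called lower was 0 at 1 h, and became 1 with DESeq2, 4 with the replicate block and 2 from replicates 1 and 2 alone. With the block it became 4 from 1 to 2 h, 8 from 2 to 4 h and 4 for the change of rate (1 with DESeq2), and 1 gene was called higher at 2 h, at 4 h and from 1 to 2 h. Scaled to ribosomal protein mRNAs, 8 were lower at 4 h. Leaving out 1 library each time gave 0 to 1 lower at 1 h (1 without 0 h replicate 3) and 2 to 4 at 2 h (2 without 0 h replicates 1 or 2 or 2 h replicate 3). At 4 h it gave 5 to 7 lower, and for slopes below 0 also 5 to 7. The block changed no other count over the 9 genes by more than 1.5 times; the 3 count ratios passed with times permuted within the replicate number (exact permutation, adjusted p = 0.000109 for LATS2/LATS1 at 0.24 per hour, 0.000362 for AMOTL2/AMOTL1 at -0.18 and 0.000109 for CYR61/CTGF at -0.71), and in each fit without 1 library.

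Some changes of small size turned sign. With ribosomal protein scaling LATS2 turned to -0.0766 at 2 h, -0.20 at 4 h and -0.0629 per hour, and YAP1 to -0.33 at 4 h, -0.0341 from 1 to 2 h and -0.0894 per hour. With library totals YAP1 turned to -0.12 at 4 h and -0.0318 per hour, and LATS2 to -0.00472 per hour. From replicates 1 and 2 alone YAP1 turned to -0.0293 at 4 h and -0.00649 per hour. With 1 library left out the ranges that crossed 0 were, at 1 h, -0.45 to 0.071 (CTGF), -0.52 to 0.17 (ANKRD1), -0.10 to 0.0328 (LATS1) and -0.0335 to 0.24 (LATS2). At 2 h they were -0.0731 to 0.21 (LATS2) and -0.0325 to 0.00508 (TEAD1), at 4 h -0.0456 to 0.0772 (YAP1), for the slope -0.00294 to 0.0257 (YAP1) and for the change of rate -0.996 to 0.0192 (ANKRD1). No cause of these turns was tested.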
